A study of Rattus norvegicus with 192 samples.

Results

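The proteasome subunit genes were examined as a group in rat hypothalamus, pituitary, thyroid and liver. They are the genes whose symbol begins with Psm, then 1 letter from a to g, then a number. The rule found 50 of the 17483 genes in the count table. Of these, 48 encode subunits, activators, the inhibitor or assembly chaperones of the proteasome. The other 2, Psmc3ip and Psme3ip1, are named for proteins that bind a subunit. They were left out of the counts below, except those of promoter motifs. The 48 members comprise 20 genes of the core particle, 17 genes of the regulatory particle and 11 genes of activators, inhibitor and chaperones.

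The tissues came from adult male wild-type rats of the Crl:CD(SD) stock. All rats were gavaged daily for 7 days, from postnatal day 56 to 62. The vehicle group received corn oil, and the other groups received 8 mg vancomycin per kg body weight per day (a glycopeptide antibiotic), 3 mg PFOS per kg body weight per day (perfluorooctane sulfonate, a persistent surfactant), or both at those doses. RNA was measured by 3' bulk RNA barcoding sequencing, in which each sample receives a barcode during reverse transcription and the samples are then pooled, with 12 libraries per tissue and treatment and 192 in all.

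The proteasome degrades proteins that carry a chain of ubiquitin. Its core particle is a barrel of outer alpha rings and inner beta rings, and 3 kinds of beta subunit hold the proteolytic sites. The regulatory particle caps the barrel: the ATPases of its base unfold substrates, and its lid removes the ubiquitin chain. Inducible beta subunits can take the place of the constitutive catalytic ones, which gives the immunoproteasome, known for producing peptides for antigen presentation, and the PA28 activator can bind the barrel in place of the regulatory particle. In neurons the proteasome is known for its part in synaptic protein turnover, and in endocrine cells and hepatocytes it removes misfolded secretory proteins exported from the endoplasmic reticulum.

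Libraries with under 100000 counts were left out, which removed 14, and 178 remained: 47 of hypothalamus, 48 of pituitary, 46 of thyroid and 37 of liver, with 8 to 12 per group. Total counts of these ran from 106742 to 3387946 with a median of 553098. The tissue labels held against their markers. Growth hormone, prolactin and Pomc together made up a mean of 363246 CPM (the count of a gene scaled by the total of its library) in vehicle pituitary, Tg, which encodes thyroglobulin, 46367 CPM in thyroid, and Alb, Apoa1 and Ttr 105590 CPM in liver. Markers of 1 tissue were also counted in others: pituitary markers stood at 4940 CPM in hypothalamus and Tg at 1216 CPM in liver, each on the same plate. Between plates, the growth hormone gene Gh1 stood at 161 CPM in liver, and Pth at 27.6 and Tg at 26.01 CPM in hypothalamus. The source of these counts was not tested. Hypothalamus and pituitary shared 1 plate and thyroid and liver the other, and each treatment of a tissue filled its own plate row, so plate and tissue pair, or row and treatment, cannot be told apart. The thyroid libraries also held parathyroid and C-cell markers at 52285 CPM. The labels number the samples of each group without saying that each is a separate animal, so p-values measure the spread between these samples.

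In vehicle libraries the summed level of the core particle was highest in hypothalamus and lowest in liver. The 20 core genes summed to 6831 CPM in the lowest, 7404 in the median and 8088 in the highest hypothalamus library (mean 7358 ± 320, SD, n = 12). The thyroid libraries ran from 5569 through 6274 to 6801 CPM (6262 ± 367, n = 12). The pituitary libraries ran from 4504 through 5189 to 5639 CPM (5112 ± 358, n = 12), and the liver libraries from 2445 through 2909 to 3278 CPM (2841 ± 272, n = 9). Hypothalamus did not overlap any other tissue, liver lay below all of them, and pituitary and thyroid overlapped slightly. In bulk tissue, fewer cells of a type and less RNA per cell cannot be told apart.

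The 17 regulatory genes gave another order of tissues. Their sum was 4123, 4825 and 5551 CPM in the lowest, median and highest vehicle hypothalamus library (4797 ± 481). It was 2304, 2479 and 3109 CPM in pituitary (2543 ± 245) and 2007, 2348 and 2621 CPM in thyroid (2311 ± 219). In liver it was 1229, 1335 and 1714 CPM (1422 ± 171). Thyroid, which was above pituitary in core transcripts, was thus level with or below it in regulatory ones. CPM depends on the share of a library taken by abundant tissue products. With CPM scaled by TMM factors (trimmed mean of M values), which set most genes level between libraries, the mean core sum became 5241 CPM in hypothalamus, 5423 in pituitary, 5382 in thyroid and 5152 in liver. The regulatory sum became 3414, 2695, 1985 and 2545 CPM, so the order of tissues in summed level depends on the scaling.

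**Figure D1:**
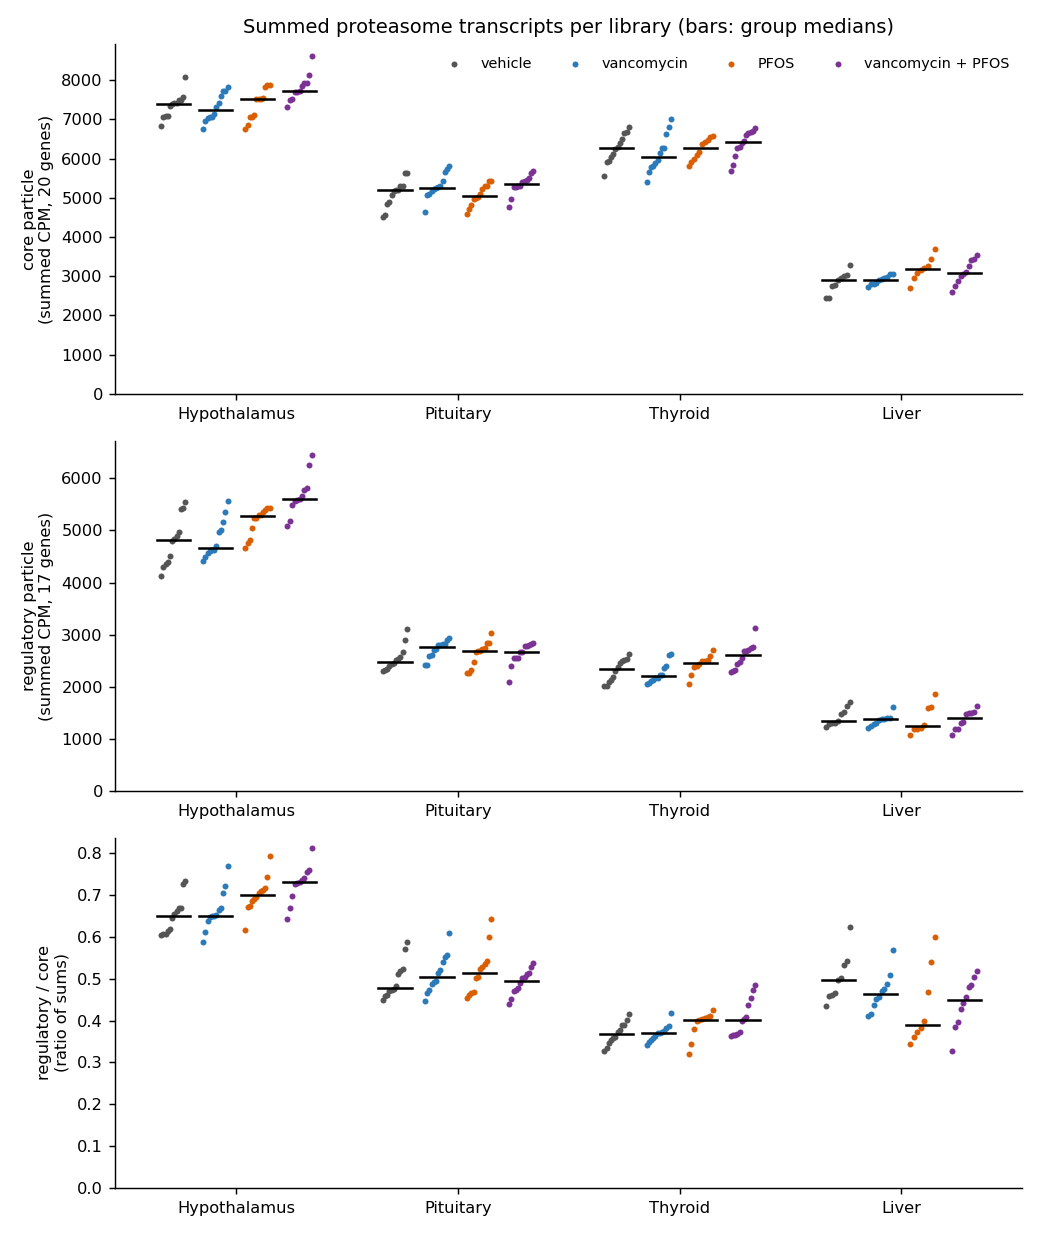
Summed CPM of the 20 core genes (top), summed CPM of the 17 regulatory genes (middle) and the ratio of regulatory to core sum (bottom) for each kept library, by tissue and treatment; points are libraries ordered by value within a group and bars are group medians. Core sums of vehicle libraries span 2445 CPM in liver to 8088 CPM in hypothalamus, and the regulatory to core ratio is lowest in thyroid at a median of 0.367 and highest in hypothalamus at 0.650.

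The ratio of the regulatory to the core sum within a library does not depend on that scaling. In vehicle hypothalamus it was 0.604, 0.650 and 0.734 (lowest, median, highest). It was 0.449, 0.479 and 0.588 in pituitary, 0.435, 0.497 and 0.624 in liver and 0.328, 0.367 and 0.415 in thyroid. Every vehicle hypothalamus library was thus above every thyroid and pituitary library, every thyroid library was below every pituitary and liver library, and liver and pituitary overlapped. The ratio of lid to base sums within the regulatory particle was lowest in hypothalamus and highest in thyroid, with medians of 0.394 in hypothalamus, 0.405 in pituitary, 0.495 in liver and 0.546 in thyroid, although these ranges overlapped.

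Within a tissue the members kept a similar order of levels. Across the 48 members, Spearman's rho between the mean vehicle CPM of 2 tissues ran from 0.891 to 0.955, lowest for hypothalamus with thyroid. These are correlations across genes, which are not independent replicates, and the library type and shared gene models are common to all points. In the 3' assay each transcript is counted from its end, so CPM was not divided by length.

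The alpha ring genes spanned a wide range. Psma7, an outer-ring subunit, was the highest core member in pituitary at 652 CPM and stood at 733 in hypothalamus, 681 in thyroid and 316 in liver. Psma3, another outer-ring subunit, was the lowest of the 7 ubiquitous alpha genes in every tissue, with means from 42.6 to 73.3 CPM. Psma3l, a gene named as like Psma3, was at or near 0, with 8 counts over the 12 vehicle hypothalamus libraries and 0 over the 9 of liver. Reads that fit both Psma3 and Psma3l could be assigned to either or to none, so both values are uncertain. Psma8, the alpha subunit known from testis, was at a mean of 4.87 CPM in thyroid (50 counts over 12 libraries) 2.17 CPM in pituitary, 0.727 in hypothalamus and 0.198 in liver.

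Among the constitutive beta genes, the highest member differed by tissue. Psmb5, which carries the chymotrypsin-like site, was highest of the core in hypothalamus at 1028 ± 52.3 CPM. Psmb4, a structural beta subunit, led in thyroid at 831 CPM, and Psmb1, also structural, led in liver at 327 CPM. As a share of the core sum, Psmb4 had a mean of 11.8% in hypothalamus, 8.58% in pituitary, 13.2% in thyroid and 7.16% in liver.

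**Figure D2:**
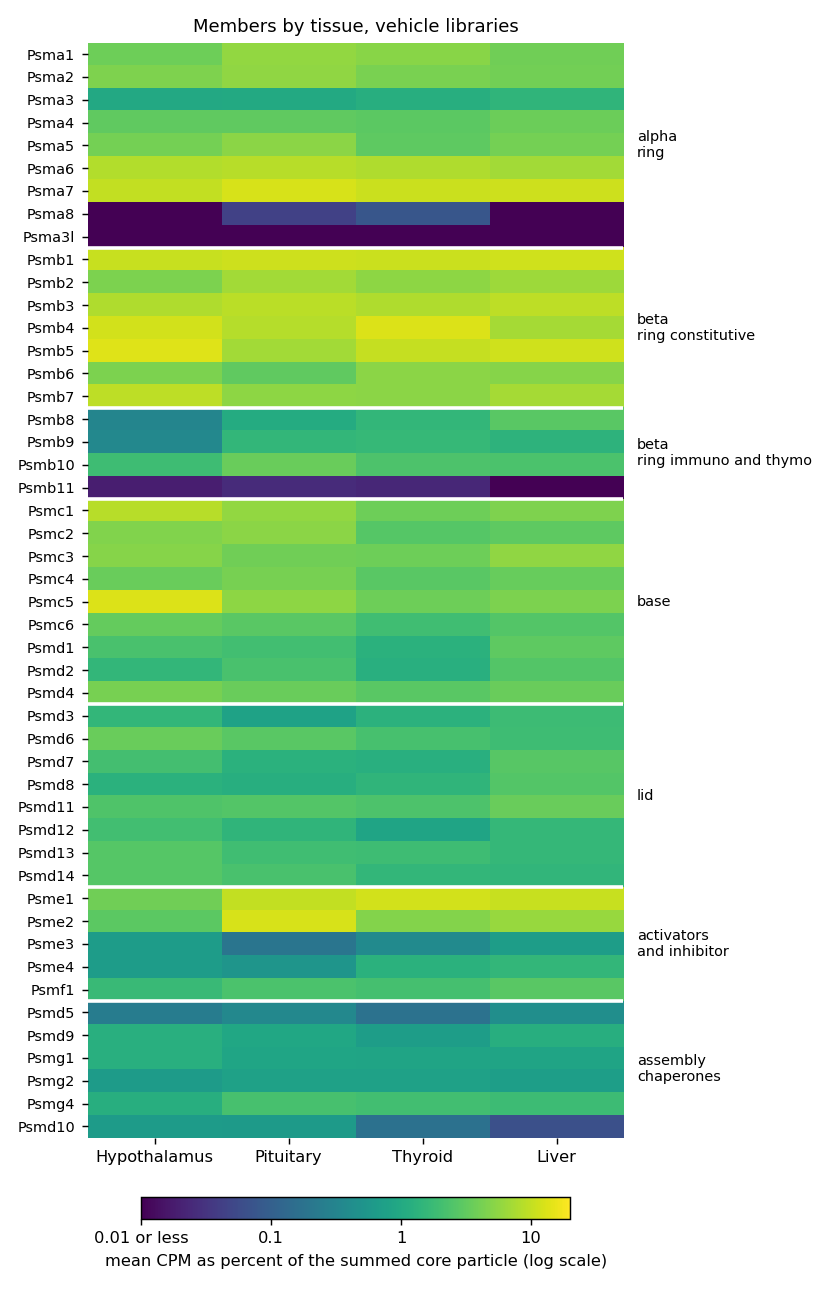
Mean vehicle CPM of each of the 48 members as percent of the summed core particle of the same tissue (colour, log scale), with members in rows grouped by class and tissues in columns. Psmb8 and Psmb9 are darkest in hypothalamus, Psmc5 is brightest there, Psme2 is brightest in pituitary, and Psma3l, Psma8 and Psmb11 are near the bottom of the scale throughout.

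Of the inducible catalytic genes, Psmb8 and Psmb9 had their lowest mean CPM in hypothalamus, while Psmb10 had its lowest in liver. Psmb8, the inducible counterpart of Psmb5, ran from 14.5 through a median of 22.1 to 37.5 CPM in vehicle hypothalamus. It ran from 34.3 through 54.2 to 82.4 CPM in pituitary, from 58.5 through 104 to 116 CPM in thyroid and from 52.9 through 74.9 to 128 CPM in liver. Only the highest hypothalamus library reached into the range of another tissue, pituitary. Psmb9, the counterpart of Psmb6, ran from 13.7 through 25.4 to 38.2 CPM in hypothalamus, against 52.2 to 101 in pituitary, 66.1 to 140 in thyroid and 23.9 to 55.1 in liver. Its ranges in hypothalamus and liver thus overlapped. Psmb10, the counterpart of Psmb7, stood at means of 137, 182, 151 and 64.1 CPM in hypothalamus, pituitary, thyroid and liver. Psmb11, the thymus-specific beta subunit, had means of 1.402, 1.32, 1.49 and 0.198 CPM in the same order.

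The constitutive catalytic genes had a different order. Psmb5 ran from 956 to 1124 CPM in vehicle hypothalamus, 577 to 707 in thyroid, 234 to 470 in pituitary and 241 to 412 in liver. Psmb6, which carries the caspase-like site, had means of 332, 159, 335 and 142 CPM in hypothalamus, pituitary, thyroid and liver. Psmb7, which carries the trypsin-like site, had means of 680, 283, 330 and 205 CPM. By their means all 3 were lower in pituitary than in hypothalamus and thyroid, and liver was lowest of the tissues.

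Each inducible gene was therefore expressed as a share of its pair, a measure free of library scaling. Psmb8 made up 1.27 to 3.74% of Psmb8 and Psmb5 counts in vehicle hypothalamus, with a median of 2.11%. The medians were 13.004% in pituitary, 13.9% in thyroid and 18.99% in liver, and the lowest library of those tissues was at 9.20%, so no hypothalamus library overlapped them. Psmb9 made up a median of 7.21% of its pair in hypothalamus (highest 10.1%), 33.5% in pituitary, 22.5% in thyroid and 21.9% in liver (lowest 15.1%), again without overlap. Psmb10 made up a median of 16.4% in hypothalamus, 40.7% in pituitary, 31.5% in thyroid and 25.3% in liver, and here the ranges of hypothalamus and liver overlapped. The 3 inducible genes together were 8.38 ± 1.01% of catalytic transcripts in hypothalamus, 28.4 ± 2.67% in pituitary, 20.9 ± 2.01% in thyroid and 21.7 ± 4.90% in liver.

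**Figure D3:**
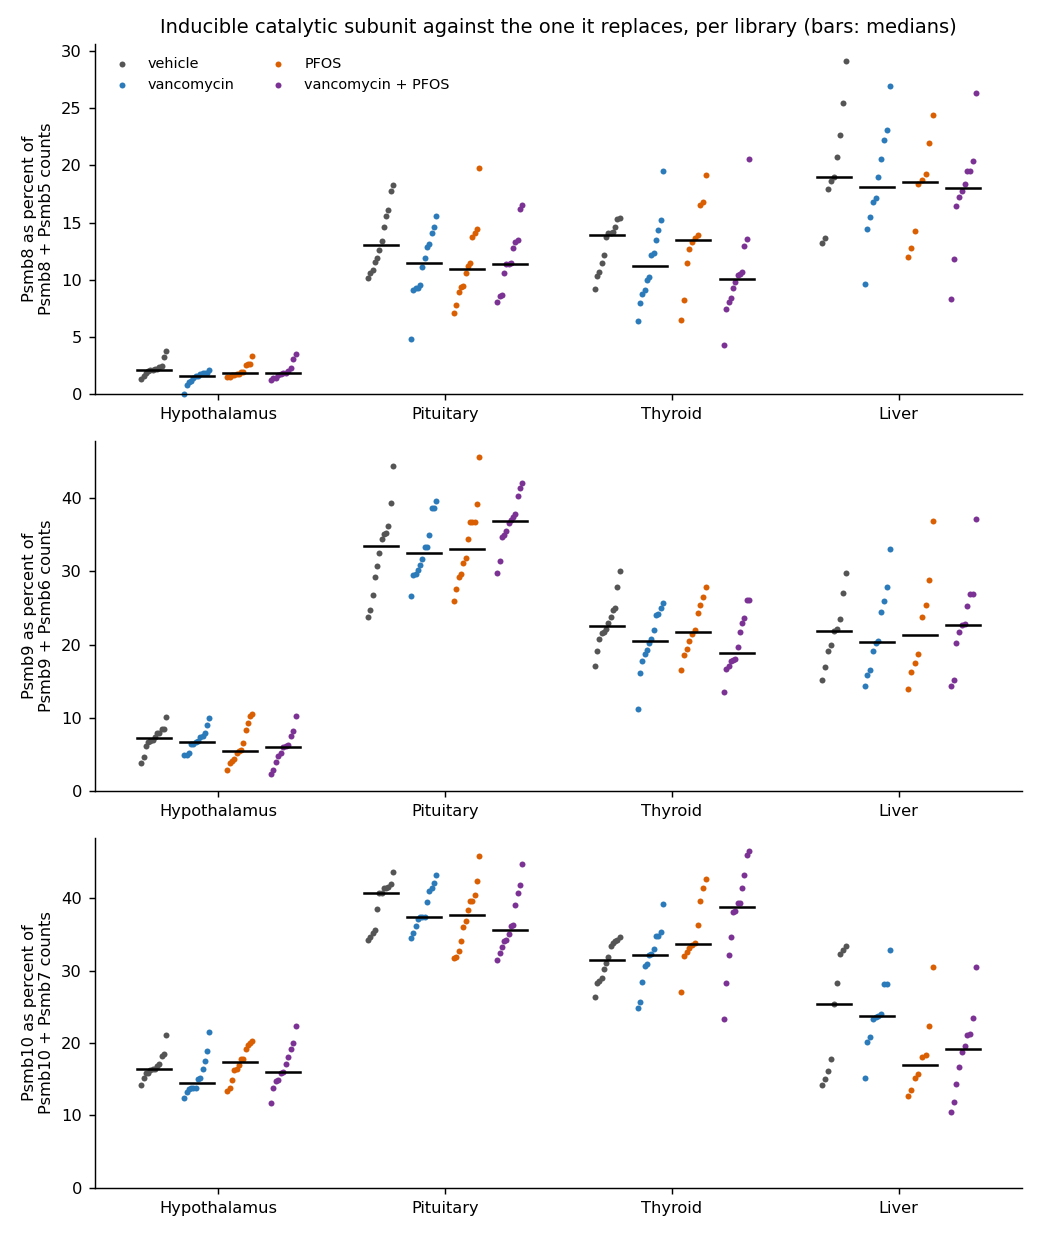
Psmb8 as percent of Psmb8 plus Psmb5 counts (top), Psmb9 of Psmb9 plus Psmb6 (middle) and Psmb10 of Psmb10 plus Psmb7 (bottom) for each kept library, by tissue and treatment; points are libraries ordered by value and bars are medians. All vehicle hypothalamus libraries lie below all vehicle libraries of the other tissues in the top and middle panels, while in the bottom panel they overlap liver.

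The inducible genes were also compared with leukocyte markers, since white blood cells are known to carry immunoproteasomes. The 10 markers (Ptprc, Cd74, Cd68, Aif1, C1qa, C1qb, Csf1r, Laptm5, Lyz2 and Coro1a) summed to 413 to 712 CPM in vehicle hypothalamus, 678 to 1306 in pituitary, 844 to 1308 in thyroid and 297 to 592 in liver. Cd74 weighed heavily in these sums, with means of 59.7, 573, 700 and 224 CPM in the same order of tissues. The markers did not share 1 order: Aif1 was highest in hypothalamus (106 CPM), Lyz2 in thyroid (181 CPM) and Cd68 in liver (11.9 CPM). These are plain CPM sums, so their order of tissues also depends on the share of a library taken by abundant tissue products. Within a tissue, Pearson's r between the summed inducible genes and the marker sum over all treatments was 0.40 in hypothalamus (n = 47), 0.29 in pituitary (n = 48), 0.13 in thyroid (n = 46) and 0.41 in liver (n = 37). These points share library depth and composition, and the part of leukocytes in the level of the inducible genes was not tested.

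The PA28 genes Psme1 and Psme2 encode the alpha and beta subunits of the activator that is induced by interferon together with the immunoproteasome. Psme1 ran from 239 through 280 to 360 CPM in vehicle hypothalamus, from 400 through 484 to 747 in pituitary, from 677 through 728 to 838 in thyroid and from 234 through 280 to 396 in liver. Psme2 ran from 183 through 217 to 242 CPM in hypothalamus, from 501 through 656 to 796 in pituitary, from 245 through 303 to 351 in thyroid and from 128 through 177 to 218 in liver. Both genes were above every hypothalamus and liver library in thyroid and in pituitary, and pituitary Psme2 was also above every thyroid library. The ratio of Psme1 to Psme2 within a library was 2.06 to 3.00 in vehicle thyroid and 0.672 to 1.07 in pituitary, ranges that do not overlap, with hypothalamus between them at 1.12 to 1.64, while liver, at 1.28 to 3.10, overlapped hypothalamus and thyroid. Over all treatments the summed PA28 genes and the summed inducible beta genes had r = 0.69 in pituitary (n = 48), 0.65 in thyroid (n = 46), 0.69 in liver (n = 37) and 0.05 in hypothalamus (n = 47). In pituitary both sums also moved with the log2 total count of the library (r = 0.77 and 0.44).

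Promoter sequence is shown for genes on which these tissue differences turn. RefSeq windows of the assembly GRCr8 were matched by symbol for 44 of the 50 genes, Psmc3ip and Psme3ip1 included. Psmd12, Psmd6, Psma7, Psmb11, Psmd14 and Psma3l had none. Each matched gene was counted with a single window, whereas the windows of all genes were counted without merging those of the same gene. In the 250 bases before the annotated start, 3 motifs were searched on both strands: GAAANNGAA (the interferon-stimulated response element core), TGACNNNGC (the antioxidant response element core, also bound by the factors that induce proteasome genes) and CCAAT. GAAANNGAA occurred in 8.12% of all 33469 windows and in 7 of the 44 genes (15.9%), which were Psma4, Psmb10, Psmb2, Psmb3, Psmd11, Psmd7 and Psme2. TGACNNNGC occurred in 10.1% of all windows and in 7 of the 44 (15.9%), which were Psma3, Psmb2, Psmb5, Psmb6, Psmd1, Psmd9 and Psme4. CCAAT occurred in 11385 of all 33469 windows and in 21 of the 44 (47.7%). A match says only that these letters are present. The sequences below read 5' to 3' on the strand of the gene, matches of any of the 3 motifs are in capitals, and ATTGG is CCAAT on the other strand. Psmb8 (chr20:4657032-4657281, minus strand) and Psmb9 (chr20:4668750-4668999, plus strand) are the inducible genes that were lowest in hypothalamus and lie close together, Psmb10 (chr19:50743293-50743542, minus strand) and Psme2 (chr15:33052752-33053001, minus strand) hold GAAANNGAA, and Psmb5 (chr15:32047380-32047629, minus strand) and Psmb6 (chr10:55737638-55737887, plus strand) hold TGACNNNGC.
Psmb8: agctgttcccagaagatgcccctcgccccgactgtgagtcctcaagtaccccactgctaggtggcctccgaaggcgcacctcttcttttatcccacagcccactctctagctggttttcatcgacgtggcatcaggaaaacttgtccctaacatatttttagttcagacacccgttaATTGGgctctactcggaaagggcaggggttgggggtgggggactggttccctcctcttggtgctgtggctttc
Psmb9: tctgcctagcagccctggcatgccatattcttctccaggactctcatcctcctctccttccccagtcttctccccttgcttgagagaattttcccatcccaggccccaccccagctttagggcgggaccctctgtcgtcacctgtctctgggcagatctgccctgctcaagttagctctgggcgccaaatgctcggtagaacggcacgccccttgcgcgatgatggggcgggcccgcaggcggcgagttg
Psmb10: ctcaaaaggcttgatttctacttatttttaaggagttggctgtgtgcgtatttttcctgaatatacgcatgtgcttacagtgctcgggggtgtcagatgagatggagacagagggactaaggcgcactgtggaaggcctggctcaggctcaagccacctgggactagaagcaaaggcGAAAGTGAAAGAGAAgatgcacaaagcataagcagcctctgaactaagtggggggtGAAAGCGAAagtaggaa
Psme2: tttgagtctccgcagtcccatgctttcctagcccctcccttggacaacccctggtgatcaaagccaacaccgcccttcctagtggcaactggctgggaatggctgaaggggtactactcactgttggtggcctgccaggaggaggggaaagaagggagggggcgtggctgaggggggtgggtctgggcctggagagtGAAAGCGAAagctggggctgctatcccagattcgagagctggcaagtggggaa
Psmb5: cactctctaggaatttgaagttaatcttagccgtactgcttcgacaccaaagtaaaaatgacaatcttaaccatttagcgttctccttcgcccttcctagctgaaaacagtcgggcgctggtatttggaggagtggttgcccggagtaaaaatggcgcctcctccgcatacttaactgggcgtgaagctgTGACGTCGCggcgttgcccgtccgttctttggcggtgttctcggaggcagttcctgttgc
Psmb6: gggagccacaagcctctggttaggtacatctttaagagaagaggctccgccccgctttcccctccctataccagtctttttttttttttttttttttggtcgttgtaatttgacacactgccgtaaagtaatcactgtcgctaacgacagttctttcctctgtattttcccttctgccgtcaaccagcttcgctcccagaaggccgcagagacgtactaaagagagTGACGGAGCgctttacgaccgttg
Psmb10 holds several overlapping or separate matches of GAAANNGAA, and Psme2 holds 1 that begins 53 bases before the start. The TGACNNNGC match of Psmb5 begins 60 bases and that of Psmb6 24 bases before the start. Psmb8 holds only CCAAT, 73 bases before the start, and Psmb9 none of the 3 motifs.

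The base of the regulatory particle showed its widest tissue difference in Psmc5, 1 of its 6 ATPases. Psmc5 ran from 787 through 1008 to 1259 CPM in vehicle hypothalamus, from 240 through 283 to 338 in pituitary, from 162 through 245 to 304 in thyroid and from 56.2 through 136 to 187 in liver. As a share of the core sum its mean was 13.3% in hypothalamus and 3.74 to 5.57% in the other tissues. Psmc1, another base ATPase, ran from 484 through 657 to 806 CPM in hypothalamus and had means of 301, 238 and 131 CPM in pituitary, thyroid and liver. Psmc3, the ATPase that led the base in liver, had a mean of 159 CPM there. The scaffold subunits were the lowest of the base: Psmd2 in hypothalamus, thyroid and liver (112, 75.7 and 72.8 CPM) and Psmd1 in pituitary (102 CPM).

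In the lid the leading gene also differed by tissue. Psmd6, a lid scaffold subunit, led the lid in hypothalamus at 260 CPM and in pituitary at 145, and was at 138 CPM in thyroid and 53.3 in liver. Psmd11, another lid scaffold subunit, led in thyroid at 150 CPM and in liver at 102. Psmd14, the deubiquitinase of the lid, had means of 199, 113, 96.8 and 43.9 CPM in hypothalamus, pituitary, thyroid and liver and was the lowest lid gene in liver. The lowest lid genes elsewhere were Psmd8 in hypothalamus (93.9 CPM), Psmd3 in pituitary (41.1 CPM) and Psmd12 in thyroid (53.0 CPM).

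The other activators and the chaperones covered a wide range. The highest chaperone in pituitary, thyroid and liver was Psmg4, at 112, 125 and 52.5 CPM. In hypothalamus Psmd9 stood at 88.8 CPM, Psmg1 at 88.0 and Psmg4 at 86.6. Psme3, which encodes the nuclear PA28 gamma activator, had means of 49.2 CPM in hypothalamus, 10.05 in pituitary, 23.8 in thyroid and 19.2 in liver. Psme4, which encodes the activator PA200, was the lowest activator in hypothalamus at 48.3 CPM. Psmd10, which encodes gankyrin, a chaperone of base assembly, had the widest range over tissues of the 45 members tested there: 40.2 to 65.3 CPM in hypothalamus, 12.4 to 59.2 in pituitary, 3.34 to 16.7 in thyroid and 0 to 7.51 in liver, where 5 of 9 vehicle libraries held none of its 15 counts.

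Differences between vehicle tissues were tested with edgeR (quasi-likelihood test, Benjamini-Hochberg adjustment over 6560 genes, threshold 0.05), and "higher", "lower", "rose", "fell" and "called" refer to that threshold. Fold changes are log2 values on TMM-scaled counts and so need not match the ratio of plain CPM. Most genes differed between any pair of tissues. Hypothalamus against pituitary called 32 of 45 members tested, beside 68.2% of all genes, and hypothalamus against thyroid 33, beside 76.1%. Hypothalamus against liver called 27 (75.4% of all genes), pituitary against thyroid 28 (68.3%), pituitary against liver 28 (70.6%) and thyroid against liver 21 (64.8%). The members' shares, from 46.7 to 73.3%, were near or below those backgrounds. With library size alone as the scaling, the median difference of all genes moved from 0.09 to 0.67 for hypothalamus against pituitary, from 0.01 to 0.29 against thyroid and from 0.22 to 1.64 against liver. It moved from -0.04 to -0.34 for pituitary against thyroid, from 0.22 to 1.05 for pituitary against liver and from 0.28 to 1.39 for thyroid against liver. The split of calls moved with it: against liver, 12 members were higher and 15 lower in hypothalamus in the first case and 42 and 2 in the other.

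Psmb8 and Psmb9 were lower in hypothalamus than in each other tissue under TMM, DESeq2 size factors and library size alone. For Psmb8 the edgeR differences were -1.85 ± 0.16 (SE) against pituitary, -2.32 ± 0.15 against thyroid and -3.17 ± 0.17 against liver, and with library size alone -1.26, -2.04 and -1.77. For Psmb9 they were -2.19 ± 0.15, -2.24 ± 0.15 and -2.001 ± 0.19, and with library size alone -1.61, -1.97 and -0.58. Psmb10 was lower in hypothalamus than in pituitary (-0.99 ± 0.10) and thyroid (-0.40 ± 0.09, or -0.12 with an adjusted p of 0.261 under library size alone). Against liver it did not pass the test under TMM (-0.16, edgeR adjusted p = 0.253) and was higher in hypothalamus under library size alone (1.24). Psme1 and Psme2 were lower in hypothalamus than in pituitary (-1.44 and -2.16) and thyroid (-1.65 and -0.78) under all 3 scalings, whereas against liver -1.36 and -1.12 became -0.00 (adjusted p = 0.996) and 0.28 under library size alone. Psme2 was higher in pituitary than in thyroid by 1.38 ± 0.10.

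The counts for hypothalamus differed by particle and by scaling. All 9 base genes were higher there than in thyroid, with a median difference of 0.72, and 14 of the 17 regulatory genes were higher and 0 lower, while of 17 core genes tested 3 were higher and 6 lower. Under library size alone 15 regulatory genes were higher and 0 lower, and the core counts turned to 8 higher and 3 lower. Against pituitary, 9 regulatory genes were higher in hypothalamus and 2 lower, and 4 core genes were higher and 9 lower. Under library size alone, 16 regulatory genes were higher and 0 lower, and the core counts turned to 11 higher and 3 lower. Against liver, 8 regulatory genes were higher and 5 lower and 3 core genes were higher and 4 lower under TMM, while library size alone gave 17 and 0 for the regulatory and 15 and 2 for the core genes. Psmc5 was higher in hypothalamus by 1.21 ± 0.11 against pituitary, 1.81 ± 0.11 against thyroid and 1.58 ± 0.13 against liver, and under library size alone by 1.81, 2.09 and 2.97. Psmd10 was higher in hypothalamus than in thyroid (1.80 ± 0.21) and liver (2.35 ± 0.37), and was 0.08 ± 0.20 against pituitary (edgeR adjusted p = 0.740).

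Treatment was tested within each tissue, with all 4 groups in 1 edgeR fit. In hypothalamus a few base ATPases were called higher in the contrasts with PFOS, and most of these calls were lost with library depth as a covariate. PFOS against vehicle called 2 of 45 members (4.37% of all 6596 genes), both base ATPases and both higher. The combination against vehicle called 4, all higher (8.14% of all genes), namely Psma7, Psmc1, Psmc3 and Psmc5. The combination against vancomycin alone, the effect of PFOS on top of vancomycin, called 6 (7.82% of all genes), with Psmc1, Psmc3, Psmc4, Psmc5 and Psmf1 higher and Psmd3 lower. The members' shares in these contrasts were 4.44, 8.89 and 13.3%, the first and second of them near the background.

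Psmc1 stood at 484, 657 and 806 CPM in the lowest, median and highest vehicle library of hypothalamus. It was at 559, 609 and 975 CPM under vancomycin, 607, 787 and 964 under PFOS and 737, 898 and 1088 under the combination. The PFOS groups were the higher ones and all groups overlapped, with 11 of 12 PFOS and 11 of 11 combination libraries above the vehicle mean. The edgeR difference was 0.28 ± 0.08 for PFOS against vehicle (adjusted p = 0.0362), 0.43 ± 0.08 for the combination against vehicle (adjusted p = 0.00049) and 0.37 ± 0.08 for PFOS on top of vancomycin (adjusted p = 0.0028).

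Psmc3, the base ATPase next in size of effect, stood at 313, 374 and 432 CPM under vehicle and 314, 344 and 521 under vancomycin. It was at 400, 438 and 476 CPM under PFOS and 387, 480 and 580 under the combination. All 12 PFOS libraries were above the vehicle mean, and the ranges overlapped. The edgeR differences were 0.24 ± 0.07 (adjusted p = 0.0298), 0.31 ± 0.07 (adjusted p = 0.0019) and 0.29 ± 0.07 (adjusted p = 0.0046) in the same order. Psmc5 rose by 0.23 ± 0.07 under the combination (edgeR adjusted p = 0.0339), with medians of 1008 CPM under vehicle and 1194 under the combination.

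Single libraries and depth bear on these calls. Without 1 PFOS library, number 31, in which Psme1 was at 113 CPM, PFOS against vehicle called 0 members, with Psmc1 at 0.25 (edgeR adjusted p = 0.0848) and Psmc3 at 0.23 (adjusted p = 0.0575). That library was chosen after its values were seen, and the other contrasts called 5 and 6 members without it. Median totals fell over the groups, from 875790 counts under vehicle through 751640 and 662537 to 531350 under vancomycin, PFOS and the combination. The summed base had r = -0.71 with the log2 total over the 47 hypothalamus libraries, and the summed lid r = -0.07. With log2 total as a covariate the members called fell to 0 for PFOS, 0 for the combination and 1 for PFOS on top of vancomycin (Psmc1, 0.28, adjusted p = 0.0493). The part of depth in these differences was not tested further.

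Promoters are shown for the 2 genes called in each of the 3 contrasts with PFOS. Psmc1 (chr6:125122247-125122496, plus strand) and Psmc3 (chr3:97487393-97487642, plus strand) each hold CCAAT, 162 and 16 bases before the start, in capitals, and neither GAAANNGAA nor TGACNNNGC.
Psmc1: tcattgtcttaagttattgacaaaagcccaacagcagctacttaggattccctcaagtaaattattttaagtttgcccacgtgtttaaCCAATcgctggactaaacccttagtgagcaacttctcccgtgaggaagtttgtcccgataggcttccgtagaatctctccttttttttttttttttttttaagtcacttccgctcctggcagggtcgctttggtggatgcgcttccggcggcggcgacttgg
Psmc3: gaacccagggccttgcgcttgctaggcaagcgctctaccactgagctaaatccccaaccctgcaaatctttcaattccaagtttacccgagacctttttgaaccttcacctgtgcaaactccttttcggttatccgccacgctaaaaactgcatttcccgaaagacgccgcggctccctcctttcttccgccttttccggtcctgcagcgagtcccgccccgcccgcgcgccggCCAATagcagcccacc

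**Figure D4:**
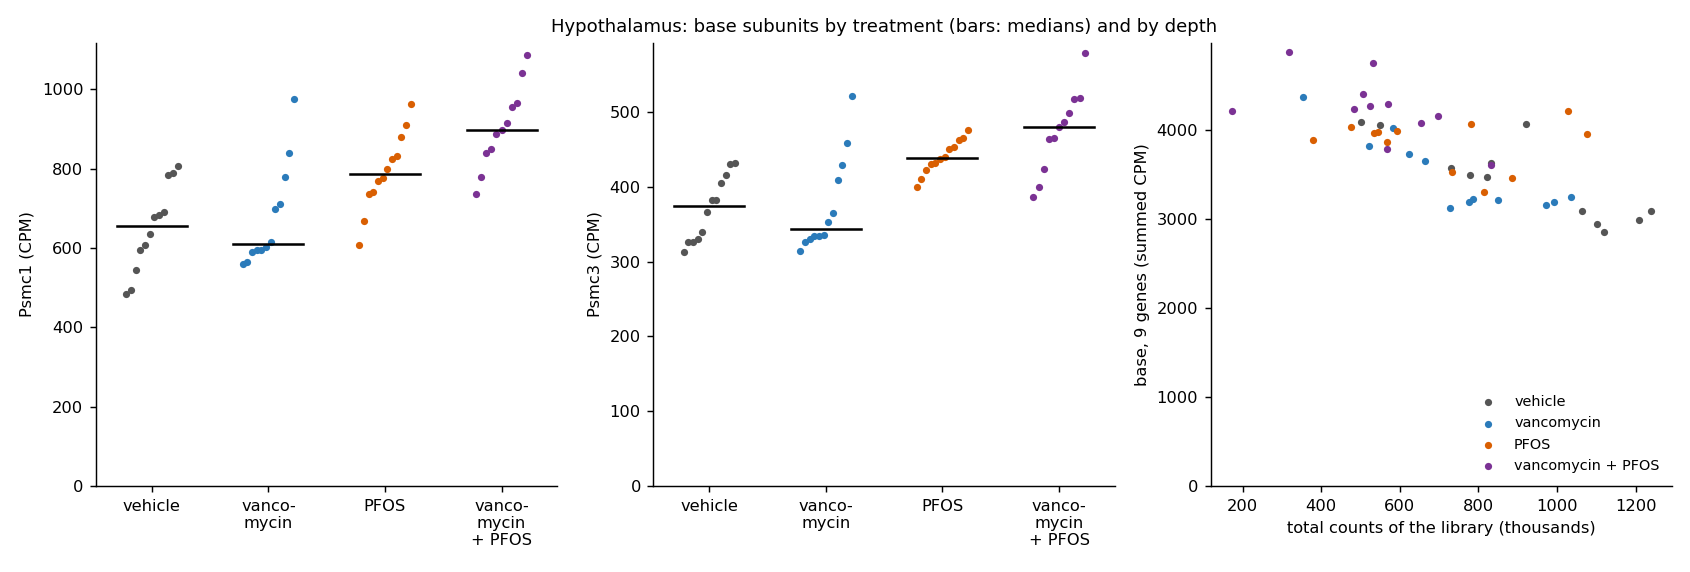
Psmc1 CPM (left) and Psmc3 CPM (middle) in each hypothalamus library by treatment, ordered by value with bars at the medians, and the summed CPM of the 9 base genes against the total counts of the library (right). Medians of Psmc1 rise from 657 CPM under vehicle to 898 under the combination, and shallower libraries lie higher on the whole in the right panel.

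The summed base moved more than the summed lid. Its medians were 3490 CPM under vehicle, 3240 under vancomycin, 3966 under PFOS and 4241 under the combination, with ranges of 2859 to 4099, 3125 to 4375, 3309 to 4221 and 3608 to 4886. The lid had medians of 1347, 1341, 1341 and 1412 CPM. The ratio of regulatory to core sum had medians of 0.650, 0.651, 0.7002 and 0.732, with ranges that overlapped. These sums were not tested.

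The effect of PFOS averaged over the groups with and without vancomycin was a contrast added after the data were seen. It called 12 of 45 members in hypothalamus (26.7%, beside 20.3% of all genes), 9 higher and 3 lower. Of the base, 6 of 9 genes rose: Psmc1 by 0.33 ± 0.06, Psmc3 by 0.27 ± 0.05, Psmc4 by 0.20, Psmc5 by 0.18, Psmd1 by 0.19 and Psmd2 by 0.24. Psmd14 rose by 0.16, Psma7 by 0.11 and Psmf1, which encodes the proteasome inhibitor PI31, by 0.19. Psmd3, a lid subunit, fell by 0.36 ± 0.08, with libraries at 83.7 to 132 CPM under vehicle, 62.3 to 164 under vancomycin, 62.4 to 140 under PFOS and 60.2 to 138 under the combination. Psme1 fell by 0.18 ± 0.06, and Psmb7 fell by 0.12 ± 0.05. The edgeR adjusted p of these ranged from 5.68e-05 to 0.0471. Without library 31 the count was 11, since Psmb7 no longer passed (-0.12, adjusted p = 0.0615), and Psme1 stood at -0.14 (adjusted p = 0.0280). With log2 total as a covariate 2 members remained called, Psmc1 (0.25, adjusted p = 0.0043) and Psmc3 (0.19, adjusted p = 0.0062). The median over the 45 members was 0.05, beside 0.0042 over all genes.

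Vancomycin left no called member in hypothalamus, either against vehicle (0.0% of all genes called, 1 member at an unadjusted p under 0.05) or on top of PFOS (0.0%, 4 members). The interaction of PFOS and vancomycin called none either (0.0%, 1 member), and DESeq2 called 0 members in each of these. The member with the smallest p for vancomycin was Psmb8, at -0.61 ± 0.20 (edgeR adjusted p = 0.9996). For vancomycin on top of PFOS it was the lid subunit Psmd7 at 0.27 ± 0.10 (adjusted p = 0.530), and for the interaction also Psmd7, at 0.32 ± 0.14.

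In pituitary no member passed the test in any contrast. PFOS against vehicle called 0 of 44 members (1.19% of all 4380 genes), vancomycin 0 (0.0228%), the combination 0 (1.37%) and PFOS on top of vancomycin 0 (0.0%). Vancomycin on top of PFOS called 0 (0.0%), the interaction 0 (0.0%) and PFOS averaged over both backgrounds 0 (1.44%). At an unadjusted p under 0.05 there were 1 to 5 members per contrast, and DESeq2 called 0 in each. The smallest p belonged to Psmb4 for PFOS (-0.22 ± 0.08, edgeR adjusted p = 0.304) and for the combination (-0.25 ± 0.08, adjusted p = 0.151), and to Psmb9 for PFOS on top of vancomycin (0.27 ± 0.11, adjusted p = 0.711) and for vancomycin on top of PFOS (0.29 ± 0.11). It belonged to the chaperone Psmd9 for vancomycin (0.32 ± 0.12, adjusted p = 0.853), to the chaperone Psmg1 for the interaction (0.67 ± 0.31) and to Psmf1 for averaged PFOS (0.15 ± 0.05, adjusted p = 0.314). The summed core had medians of 5189, 5257, 5056 and 5353 CPM under vehicle, vancomycin, PFOS and the combination, and the groups overlapped.

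In thyroid 1 member passed the test in the contrasts of single groups. The combination against vehicle called 1 of 43 members (2.79% of all 5091 genes), the catalytic Psmb7, which fell by 0.29 ± 0.08 (edgeR adjusted p = 0.0440). Psmb7 ran from 262 through 333 to 401 CPM under vehicle, 264 through 314 to 380 under vancomycin, 221 through 286 to 324 under PFOS and 208 through 281 to 364 under the combination. Both PFOS groups lay low and overlapped vehicle. With log2 total as a covariate the difference was -0.20 (edgeR adjusted p = 0.839). PFOS against vehicle called 0 (0.0589%, 5 members at an unadjusted p under 0.05) and PFOS on top of vancomycin 0 (3.24%, 12 members, with DESeq2 calling 2). Vancomycin called 0 (0.0%), vancomycin on top of PFOS 0 (0.0%) and the interaction 0 (0.0%), with 1, 2 and 1 members at an unadjusted p under 0.05. The smallest p in those belonged to the alpha subunit Psma4 for PFOS (-0.31 ± 0.09, edgeR adjusted p = 0.120), for vancomycin (-0.18 ± 0.09) and for the interaction (0.38 ± 0.13), to Psmd1 for PFOS on top of vancomycin (0.43 ± 0.13, adjusted p = 0.0612) and to Psmd7 for vancomycin on top of PFOS (0.36 ± 0.14, adjusted p = 0.680).

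PFOS averaged over both backgrounds called 7 of 43 members in thyroid, 3 higher and 4 lower. This share of 16.3% was near the 13.1% of all genes called. The base genes Psmc1 (0.29 ± 0.08), Psmc5 (0.27 ± 0.08) and Psmd1 (0.28 ± 0.09) rose. Psmd3 fell by 0.53 ± 0.17, Psma3 by 0.27 ± 0.08, Psmb7 by 0.25 ± 0.06 and Psme1 by 0.17 ± 0.05. Psmd3 had medians of 83.4 CPM under vehicle, 91.9 under vancomycin, 57.9 under PFOS and 48.5 under the combination. Here too median totals fell, from 841097 counts under vehicle to 383436 under the combination, and the summed base had r = -0.68 with log2 total over 46 libraries. With log2 total as a covariate 0 members were called and Psmd3 was at 0.0077. The summed base had medians of 1519, 1323, 1668 and 1814 CPM under vehicle, vancomycin, PFOS and the combination.

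In liver 1 member, Psmg4, was called, and only in the averaged PFOS contrast that was added after the data were seen. Psmg4 encodes an assembly chaperone of the core particle. It ran from 18.7 through 59.1 to 64.6 CPM under vehicle (n = 9) and from 16.6 through 49.8 to 64.9 under vancomycin (n = 10). It ran from 50.1 through 82.9 to 124 CPM under PFOS (n = 8) and from 43.9 through 66.7 to 131 under the combination (n = 10). Both PFOS groups were high and overlapped the others. Averaged over both backgrounds Psmg4 rose by 0.57 ± 0.15 (edgeR adjusted p = 0.0175), with 16 of 18 libraries above the mean of their control. It was the 1 of 43 members called (2.33%, beside 3.54% of all 3250 genes). The call held in 6 of 8 alternative settings. It was lost with a minimum of 500000 counts and with usual well barcodes only, a setting described below. Of the 9 vehicle libraries, 5 held other barcodes. In the single contrasts it was 0.60 ± 0.22 for PFOS (adjusted p = 0.248), 0.39 ± 0.21 for the combination (adjusted p = 0.580) and 0.54 ± 0.19 for PFOS on top of vancomycin (adjusted p = 0.315).

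No other liver contrast called a member. PFOS against vehicle called 0 of 43 (0.831% of all genes), vancomycin 0 (0.0%), the combination 0 (0.769%) and PFOS on top of vancomycin 0 (0.923%). Vancomycin on top of PFOS called 0 (0.0%) and the interaction 0 (0.0%). DESeq2 called 0 in each, and 0 to 2 members were at an unadjusted p under 0.05. For vancomycin the smallest p belonged to Psmd3 (-0.55 ± 0.25), and for vancomycin on top of PFOS and the interaction to the alpha subunit Psma1 (-0.26 ± 0.16 and -0.43 ± 0.23). The core had medians of 2909, 2917, 3183 and 3083 CPM under vehicle, vancomycin, PFOS and the combination, and the base 914, 894, 774 and 867. The regulatory to core ratio had medians of 0.497, 0.464, 0.390 and 0.449, with overlapping ranges.

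The inducible catalytic genes passed no treatment test in any tissue. As a share of catalytic transcripts their medians were 8.18, 6.99, 7.88 and 7.85% in hypothalamus under vehicle, vancomycin, PFOS and the combination, and 27.7, 27.3, 25.4 and 26.4% in pituitary. In the same order they were 20.8, 19.8, 21.6 and 21.4% for thyroid and 21.95, 21.2, 19.8 and 19.3% for liver. The 4 groups of each tissue overlapped.

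Whether the averaged PFOS effect differed between tissues was tested with 1 edgeR model of all 178 libraries. It did so for 7 of 45 members (15.6%, beside 11.7% of all 7868 genes). Psmg4 was at 0.58 ± 0.11 in liver and at 0.07, 0.04 and 0.08 in hypothalamus, pituitary and thyroid (edgeR adjusted p = 0.00579). Psmc1 was at 0.32 ± 0.08 in hypothalamus and 0.29 ± 0.09 in thyroid, and at 0.03 ± 0.08 in pituitary and -0.11 ± 0.10 in liver (adjusted p = 0.0217). For the catalytic Psmb5 the effects were -0.11, 0.16, -0.15 and 0.28 in hypothalamus, pituitary, thyroid and liver (adjusted p = 0.00803). In that order Psmb7 was at -0.12, 0.12, -0.25 and 0.17 (adjusted p = 0.00982), Psme1 at -0.18, 0.16, -0.17 and 0.06 (adjusted p = 0.0123) and Psma4 at -0.08, 0.15, -0.12 and 0.22 (adjusted p = 0.0183). Psmd3 was at -0.36, 0.25, -0.53 and 0.07 (adjusted p = 0.0265). Apart from Psmg4, hypothalamus and thyroid took 1 sign and pituitary the other or a value near 0. Hypothalamus and thyroid also shared plate rows and a type of well barcode, as did pituitary and liver, so these pairs of tissues and the barcode type cannot be told apart. The count of members was 13 with DESeq2 and 2 with usual well barcodes only. A barcode was usual if it held 1 G or C in hypothalamus and thyroid, or 5 in pituitary and liver. The 19 kept libraries with other barcodes were 4 of the hypothalamus combination, 5 of the thyroid combination, 5 of vehicle pituitary and 5 of vehicle liver. Within each tissue, barcode type thus also goes in part with treatment.

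**Figure D5:**
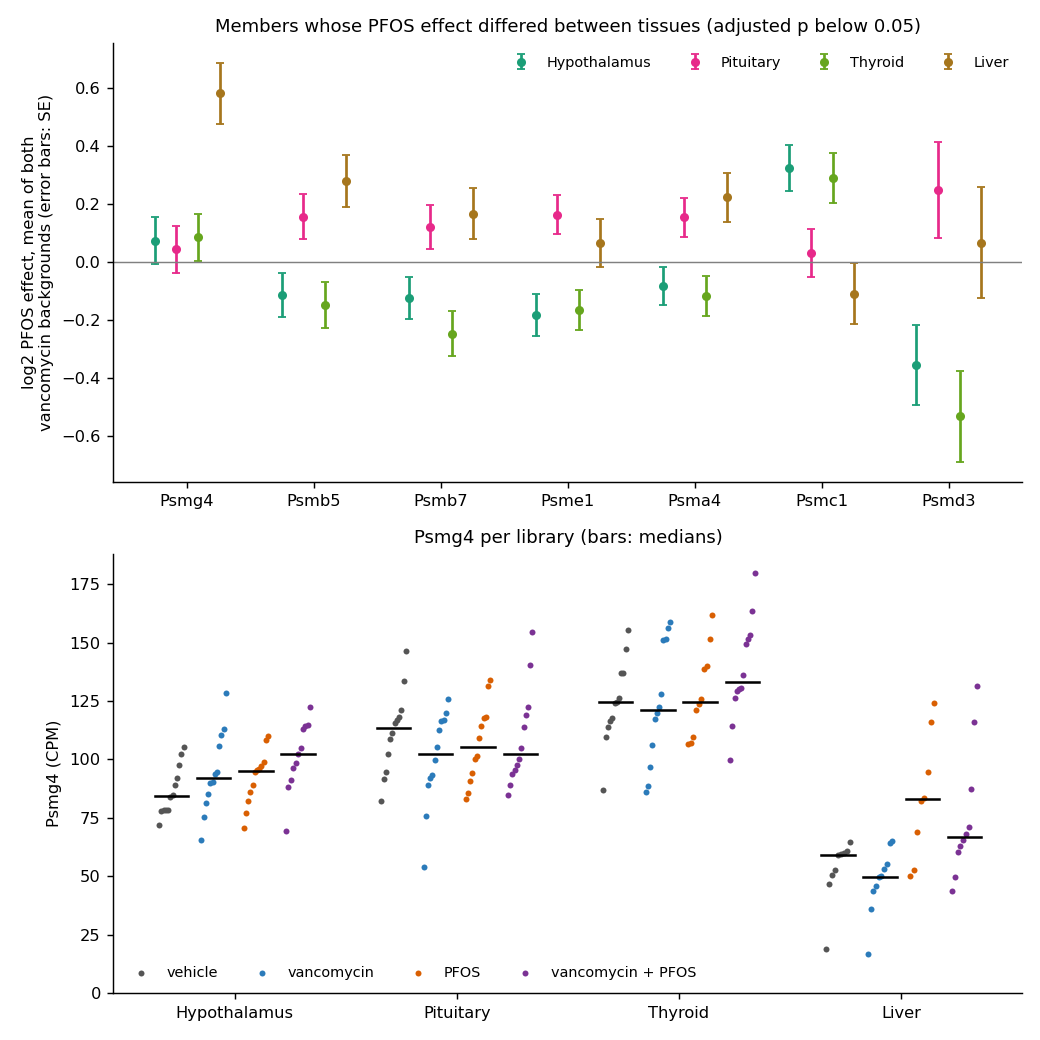
Top, log2 PFOS effect averaged over both vancomycin backgrounds for the 7 members whose effect differed between tissues, with standard errors, coloured by tissue; bottom, Psmg4 CPM in each kept library by tissue and treatment, ordered by value with bars at the medians. Psmg4 stands at 0.58 in liver alone, and in 5 of the other 6 genes hypothalamus and thyroid lie below 0 while pituitary and liver lie above it.

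Partners of the proteasome outside the symbol rule were followed in lists of pathway genes. Of 8 partner genes, which include the deubiquitinases Uchl5 and Usp14 and the chaperone Pomp, 0 were called in hypothalamus for PFOS and the combination against vehicle and 1, the thioredoxin-like Txnl1, fell by 0.31 ± 0.10 for PFOS on top of vancomycin. With averaged PFOS, Uchl5 fell by 0.36 ± 0.10 (edgeR adjusted p = 0.0103) and Txnl1 by 0.22 ± 0.07 (adjusted p = 0.0210). Among genes of ubiquitin supply and shuttling, the polyubiquitin gene Ubb rose under the combination by 0.24 ± 0.06 and Ufd1, a cofactor of the segregase Vcp, by 0.34 ± 0.09. Rps27a, a ubiquitin fusion gene, fell by 0.59 ± 0.12, and the shuttle gene Ubqln2 fell by 0.58 ± 0.18. In thyroid Rps27a fell by 0.55 ± 0.15 under the combination.

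Of 7 antigen processing genes, 3 could be tested in hypothalamus and 1 fell. B2m, the light chain of class I molecules, fell by 0.54 ± 0.13 under PFOS, 0.81 ± 0.14 under the combination and 0.65 ± 0.14 for PFOS on top of vancomycin. In thyroid it fell by 0.57 ± 0.15 under the combination. The peptide transporter gene Tap1 had a vehicle mean of 1.97 CPM in hypothalamus and 9.20 in thyroid. Of the leukocyte markers C1qb fell by 0.55 ± 0.18 in hypothalamus under the combination, 1 of 8 tested, and of the blood markers Hbb fell by 0.70 ± 0.14, 1 of 3 tested. Of the pituitary markers Pomc fell by 0.54 ± 0.16 there, 1 of 3 tested. The parathyroid marker Pth, at a vehicle mean of 27.6 CPM in hypothalamus, fell by 1.03 ± 0.32 under PFOS (edgeR adjusted p = 0.0481). In thyroid Tg rose by 0.28 ± 0.09 with averaged PFOS (adjusted p = 0.0245). Of the 3 neuron markers, 0 were called in hypothalamus for PFOS or the combination against vehicle, and 2 fell with averaged PFOS, Syt1 by 0.94 ± 0.23 (edgeR adjusted p = 0.0033) and Stmn2 by 0.18 ± 0.05 (adjusted p = 0.0129). These markers moved in contrasts in which base genes rose, and their part in those differences was not tested. The summed neuron markers ran from 1723 to 2813 CPM under vehicle, 2006 to 2784 under vancomycin, 1609 to 2837 under PFOS and 2015 to 2749 under the combination. In pituitary and liver no gene of these partner, ubiquitin or antigen processing lists was called.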

How the data were processed

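The deposited files hold raw counts per gene and library, 1 table per plate, from reads that were aligned with BWA 0.7.4.4 to rn6, per the submitters' processing notes. The names of the deposited counts hold the terms unq, refseq and umi. The counting rule and any use of molecular identifiers are not described further in the sources used here. Of 192 libraries, 14 with under 100000 counts were left out. CPM is a gene's count scaled by the total of its library. Tests used edgeR 4.0.16 (with limma 3.58.1, in R 4.3.3): genes passed filterByExpr with a minimum count of 10, libraries were scaled by TMM, and the quasi-likelihood test was adjusted by Benjamini-Hochberg over all genes tested, with a threshold of 0.05. Treatments were fitted within a tissue, vehicle tissues together, and the PFOS effect between tissues over all 178 libraries. DESeq2 1.42.0 was an alternative. The fitting script was tested on simulated data with the same spread set for every gene and no effect of depth, barcode or plate row. That test cannot show how those features bear on the calls here. PFOS averaged over both backgrounds and the fit without hypothalamus PFOS library 31 were added after the data were seen. The members and gene lists were chosen with earlier results of these data known. Named genes were the members called in a treatment contrast, or the member with the smallest p where none was called. They also included the highest and lowest member of each particle and tissue, the 6 members with the widest tissue range, the catalytic pairs, Psme1, Psme2 and called genes of the other lists. Same-numbered libraries deviated together for hypothalamus and thyroid (45 of 45 pairs with r above 0.1, median 0.248). Most pairs of pituitary and liver did so too (31 of 37, median 0.186). The remaining pairs of tissues had medians of 0.0646 to 0.0863. Hypothalamus and thyroid share plate rows and a type of well barcode, as do pituitary and liver, and the source of the shared deviation was not tested. The labels do not say that a number marks 1 animal. Some genes of the other lists are not reported here.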

Additional observations from a re-analysis of the deposited data

Results flagged for a closer look

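Of 40 groups and quantities of 4 to 10 libraries examined for a library far from the others, 2 stood out, and chance alone marks about 1 in 20. Psmg4 was at 18.7 CPM in the lowest of 9 vehicle liver libraries, with the next at 46.4. The summed regulatory particle was at 1605 CPM in the highest of 10 vancomycin liver libraries, with the next at 1402.

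The averaged PFOS effect differed between the tissues for 7 members in the edgeR test of that difference. The adjusted p was 0.00579 for Psmg4, 0.00803 for Psmb5, 0.00982 for Psmb7, 0.0123 for Psme1, 0.0183 for Psma4, 0.0217 for Psmc1 and 0.0265 for Psmd3. The part of the plate rows and barcode types that hypothalamus shares with thyroid, and pituitary with liver, was not tested.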

How the results depend on the processing

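Counts of members called moved as follows. With log2 depth as a covariate the hypothalamus called 0 for PFOS, 0 for the combination, 1 for PFOS on top of vancomycin and 2 for averaged PFOS, and the thyroid 0 for the combination and 0 for averaged PFOS. With no filter on low counts the hypothalamus called 0, 2, 3 and 7 in those contrasts, the pituitary 1 and the thyroid 4 for averaged PFOS. With library size alone the hypothalamus called 9 for the combination and 10 for PFOS on top of vancomycin, the thyroid 0 and 3 in those, hypothalamus against liver 44 and thyroid against liver 36. With a minimum of 500000 counts the hypothalamus called 2 for the combination, the thyroid 0 for the combination and 6 for PFOS on top of vancomycin, the liver 0 for averaged PFOS, and 4 members differed in PFOS effect between tissues. With usual well barcodes only the counts were 1 and 2 in hypothalamus for the combination and PFOS on top of vancomycin, 0 in thyroid for the combination, 0 in liver for averaged PFOS and 2 between tissues. DESeq2 called 2 in thyroid for the combination, 2 for PFOS on top of vancomycin and 13 between tissues, and DESeq2 size factors in edgeR 2 for the combination in thyroid and 11 between tissues. With all libraries kept 3 members differed between tissues. Without PFOS library 31 the hypothalamus called 0 for PFOS. Mean vehicle sums with TMM-scaled CPM were 5241, 5382 and 5152 for the core and 3414, 1985 and 2545 for the regulatory particle in hypothalamus, thyroid and liver. The cause of these moves was not tested.

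Among the differences of named genes that were recomputed under each setting, which for tissues were a selection, 9 reversed. Over all members and pairs of tissues more turned with the scaling, as Psme2 in hypothalamus against liver (0.28 under library size alone). With log2 depth as a covariate Psmd3 in thyroid was at 0.0077 for averaged PFOS. In thyroid against liver, library size alone gave 0.27 for Psmb8, 0.85 for Psmc1, 0.88 for Psmc5, 1.07 for Psmd14, 0.79 for Psme2 and 0.44 for Psme3, no filter gave 0.10 for Psmd14, and the minimum of 500000 counts gave -0.081 for Psmd6. Of 33 treatment calls of named genes, 28 no longer passed with the depth covariate, 17 with usual barcodes, 15 with no filter, 12 with the higher minimum and 0 with DESeq2. With the replicate number as a block (replicate block), the tissue pairs called 32, 34, 27, 28, 29 and 21 members and the PFOS effect differed between tissues for 7, and all 22 tissue differences of named genes kept their call. Of the 178 libraries 107 reached 500000 counts, and depth limits what can be seen of scarce members such as Psmd10 in liver.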
